A study of Saccharomyces cerevisiae with 12 samples.

Results

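The genes described here build and maintain the cell wall of budding yeast. They were taken from a list of 60 names covering wall mannoproteins, glucan and chitin enzymes, yapsin proteases and wall integrity sensors, and kept where a spot on the array carried that 1 gene symbol. Of the 60 names, 37 had such a spot and all 37 were measured on all 6 slides, among 3127 named genes measured on all slides. WSC3 had 2 spots and each of the other 36 had 1. The 23 names with no single-gene spot, of which 5 shared a probe with other genes, include FKS1, GAS1, CWP1, TIR1, HSP150, SLT2 and MID2, and they have no value here.

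Each slide carried labelled RNA of a mutant strain and of its wild-type parent, so every value is a ratio. The first comparison set Y18daft2, labelled as lacking both AFT1 and AFT2, over its wild type CM3260, both grown in YPD and given 200 mM hydroxyurea for 2 hours. The second set the same Y18daft2 strain over CM3260 in YPD alone, a rich medium, harvested at an optical density of 0.5. The third set an aft1 mutant over its wild type BY4741, both in YPD and given 200 mM hydroxyurea for 2 hours. In both hydroxyurea comparisons the mutant is labelled as grown to an optical density of 0.5 before the drug. Aft1 and Aft2 are transcription factors that switch on genes of iron uptake, and hydroxyurea inhibits ribonucleotide reductase, an iron enzyme that makes the precursors of DNA. There were 2 slides in each comparison with the channels of mutant and wild type exchanged, and each slide was deposited as a weak and a strong scan. The labels do not say whether the slides came from separate cultures, so the errors below cover only the spread between slides, which may be technical. Each gene's SE comes from 1 fit over all 6 slides, after a common difference between the channels was taken out. It is therefore shared by the 3 comparisons and is not the spread of the 2 slides named beside it.

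The yeast wall is a net of beta-glucan chains, cross-linked to a little chitin and covered by mannoproteins. Mannoproteins of the GPI class are released from a membrane anchor and joined to the glucan, and PIR proteins attach to it through another, alkali-sensitive bond. Glucan synthases at the plasma membrane spin the main chains, the GAS, CRH and SCW/BGL2 families lengthen, branch or cross-link them, and chitin synthases act mostly at the bud neck and septum. Genes of the wall are known to respond to the cell cycle, oxygen, cold, nutrient exhaustion and wall damage.

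Each value below is the log2 of a mutant to wild type ratio after a channel trend was removed, so it is relative to genes at a similar place along that trend. No source used here states the base of the logarithm or which channel was divided by which. The base was read as 2, and the direction is likely rather than settled, since it rests on the AFT1 spot, which read -3.04 (SE 0.204, n = 2 slides) in the aft1 comparison and was used to set the sign. In the strain labelled Y18daft2, AFT1 averaged -0.17 in hydroxyurea and -0.03 in YPD (SE 0.204, n = 2 slides each), so it did not stand clearly below CM3260 although the label names it as deleted. Whether the spot lies in the deleted part is not known here. As deposited, AFT1 on those hydroxyurea slides read -0.18 (weak) and 0.21 (strong) with the mutant in channel 2, and -0.63 and -0.19 with it in channel 1. On the YPD slides it read -0.12 and 0.13, then -0.23 and 0.05, so the sign followed the channel in the strong hydroxyurea scans alone. As far as AFT1 shows, directions in the Y18daft2 comparisons therefore assume that all columns share the orientation seen for aft1. The spot of FIT3, a known Aft1 target, did change sign with the channel on those slides. With the mutant in channel 2 it read 1.40 and 1.98 in hydroxyurea, and 2.60 and 3.24 in YPD. With the mutant in channel 1 it read -1.45 and -1.35, then -1.75 and -2.42, the same orientation as AFT1 on the aft1 slides. If the columns had already been turned to mutant over wild type, 0 of 3127 genes would be called in any comparison. AFT1 would then stand far above wild type on 1 aft1 slide and far below it on the other. As deposited it read 2.41 and 4.05 there with the mutant in channel 2, and -2.43 and -4.23 with it in channel 1. Over all genes, turned to mutant over wild type, the slides of a comparison correlated at -0.27 for Y18daft2 in hydroxyurea. They correlated at 0.21 for Y18daft2 in YPD and at 0.38 for aft1. These are descriptions across genes that are not independent replicates, and in channel orientation each would have the opposite sign. Y18daft2 ratios in hydroxyurea are therefore means of slides whose turned ratios did not rank genes alike. The channel difference taken out in the fit is common to all 6 slides, so one particular to 1 comparison would stay in the spread. Whether there was such a difference was not tested. Fewer cells of a kind and less RNA per cell cannot be told apart in these bulk samples.

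As a set, the 37 members gave 1 called gene in 1 comparison. Called means an adjusted p under 0.05 (limma with Benjamini-Hochberg over all 3127 genes). In hydroxyurea 0 members were called in Y18daft2, where 0.0959% of all genes were. In YPD 1 member, SED1, was called in Y18daft2, where 0.256% of all genes were, 0.064% in the higher direction. In the aft1 strain 0 members were called, where 0.192% of all genes were.

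At an unadjusted limma p under 0.05, 0 of the 37 members passed in Y18daft2 in hydroxyurea, against 1.57% of all genes (0.64% higher and 0.927% lower). In Y18daft2 in YPD 7 members passed on the higher side (18.9% of members, against 2.43% of all genes) and 1 on the lower side (2.70%, against 2.65%), where 5.08% of all genes passed in either direction. In the aft1 strain 8 passed on the higher side (21.6%, against 2.43%) and 1 on the lower side (2.70%, against 1.76%), where 4.19% of all genes passed in either direction. These members were listed with earlier results of the same slides known, so the shares describe the list and are no independent evidence for it.

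Agreement between slides differed by comparison. Of the 37 members, 3 lay above 0 on both slides of Y18daft2 in hydroxyurea, 5 below on both and 29 had opposite signs, which is 78.4% against 65.4% of all genes. In Y18daft2 in YPD, 18 lay above on both slides (48.6%, against 27.7% of all genes), 3 below (8.11%, against 23.8%) and 16 were opposite (against 48.5%). In the aft1 strain 19 lay above on both slides (51.4%, against 27.1%), 5 below (13.5%, against 30.9%) and 13 were opposite (against 42%). The median member ratio was 0.0016, 0.037 and 0.092 in these 3 comparisons, against -0.0051, 0.0011 and -0.0082 over all genes. The middle of the list thus stayed near 0 while some of its members lay well above it. GAS4 was the 1 member above 0 on all 6 slides and GAS3 the 1 below on all 6, where 2.14% and 1.79% of all genes were.

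**Figure D1:**
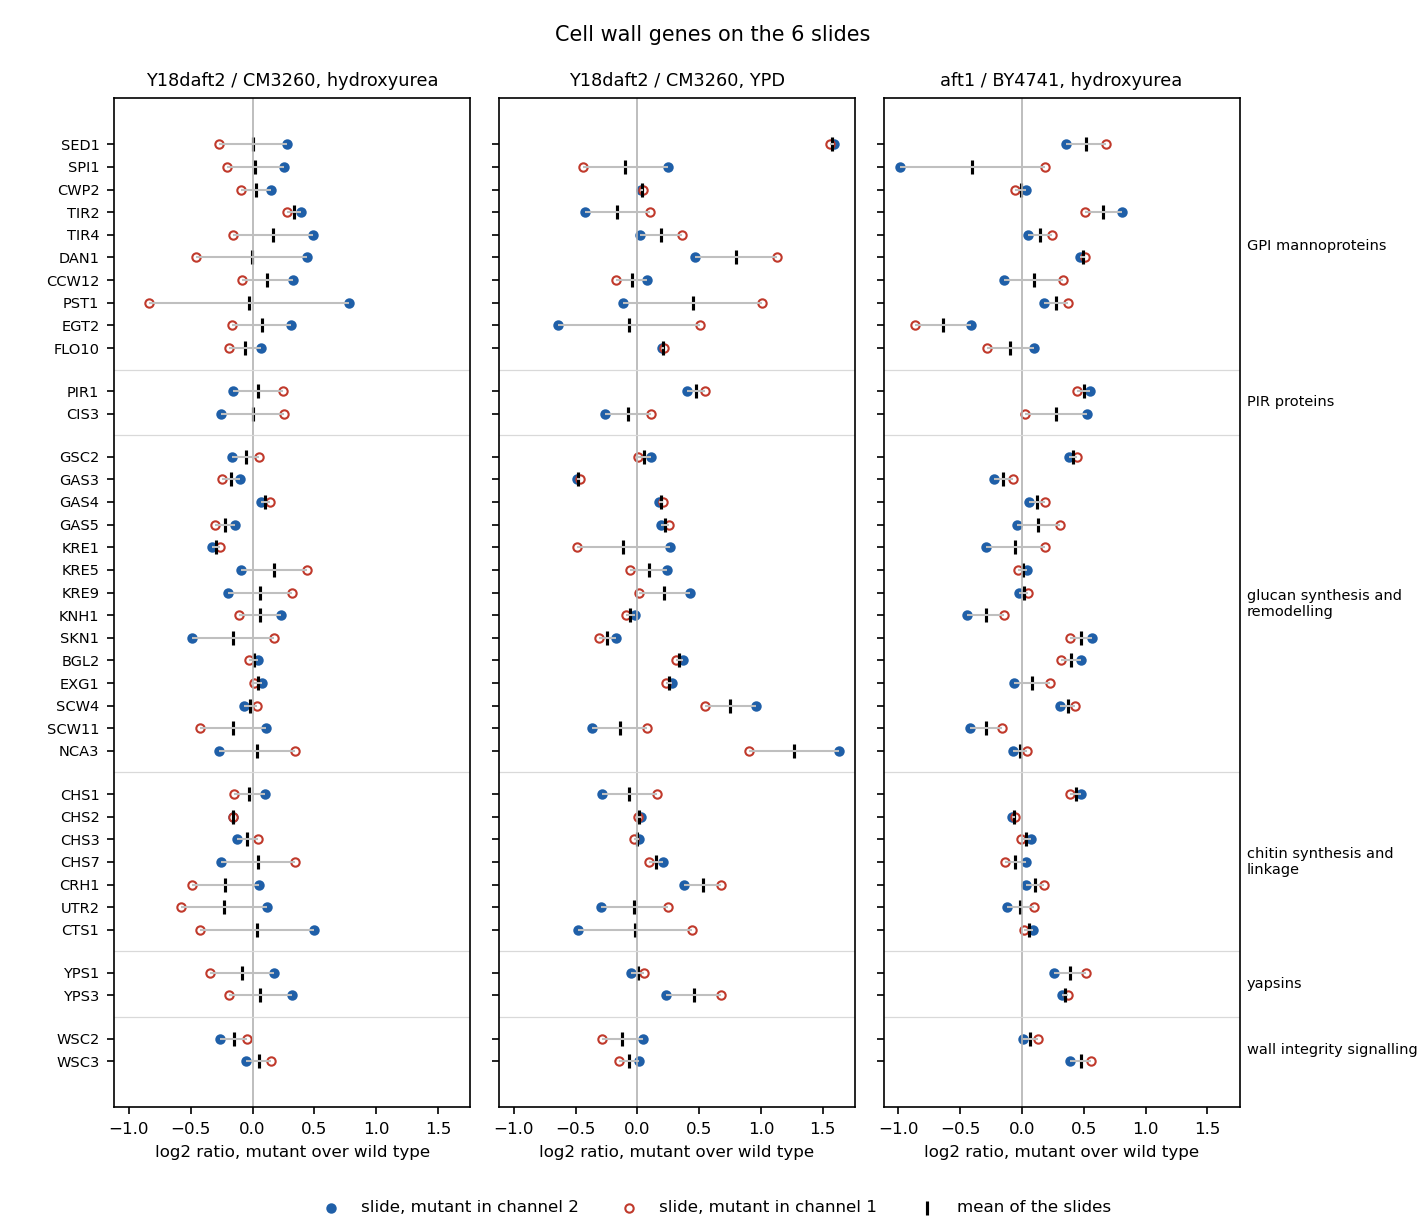
Log2 ratio of mutant over wild type (horizontal axis) of the 37 measured cell wall genes, grouped by role, in Y18daft2 in hydroxyurea, Y18daft2 in YPD and aft1 in hydroxyurea. Filled points are the slide with the mutant in channel 2, open points the slide with it in channel 1, and ticks their mean. SED1 stands at 1.59 and 1.56 in YPD, while 29 of 37 genes lie on opposite sides of 0 on the Y18daft2 hydroxyurea slides.

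Of the 16 GPI mannoproteins listed, 10 were measured, and their median ratio was 0.024 in Y18daft2 in hydroxyurea, 0.11 in Y18daft2 in YPD and 0.12 in aft1. SED1 is a major structural glycoprotein of the wall, abundant in stationary phase. Its ratio was 0.27 and -0.27 on the slides of Y18daft2 in hydroxyurea, 1.59 and 1.56 in YPD, and 0.36 and 0.68 in aft1. The YPD slides were the highest and nearly equal, the aft1 slides lay above 0, and those of Y18daft2 in hydroxyurea fell on opposite sides of 0. In YPD, SED1 rose 2.98-fold in Y18daft2 over CM3260, at 1.58 (SE 0.188, n = 2 slides, adjusted p = 0.0327, limma), the rank 2 highest ratio of 3127 genes. As deposited and only turned, it was 1.44 and did not pass (adjusted p = 0.0590, limma), and with columns taken as already turned it was -0.015.

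The deposited columns show SED1 before any centring or trend removal. In Y18daft2 in hydroxyurea the SED1 columns were 0.05 (weak) and 0.52 (strong) with the mutant in channel 2, and 0.38 and 1.04 with the mutant in channel 1. In YPD they were -0.85 and -0.92 with the mutant in channel 2, and 1.53 and 2.47 with it in channel 1. The sign thus stayed positive in both channels in hydroxyurea, and followed the mutant's channel in YPD. On the aft1 slides the weak scans read -0.18 and 0.70, again turning with the channel, and both strong scans held an exact zero, which was treated as missing.

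**Figure D2:**
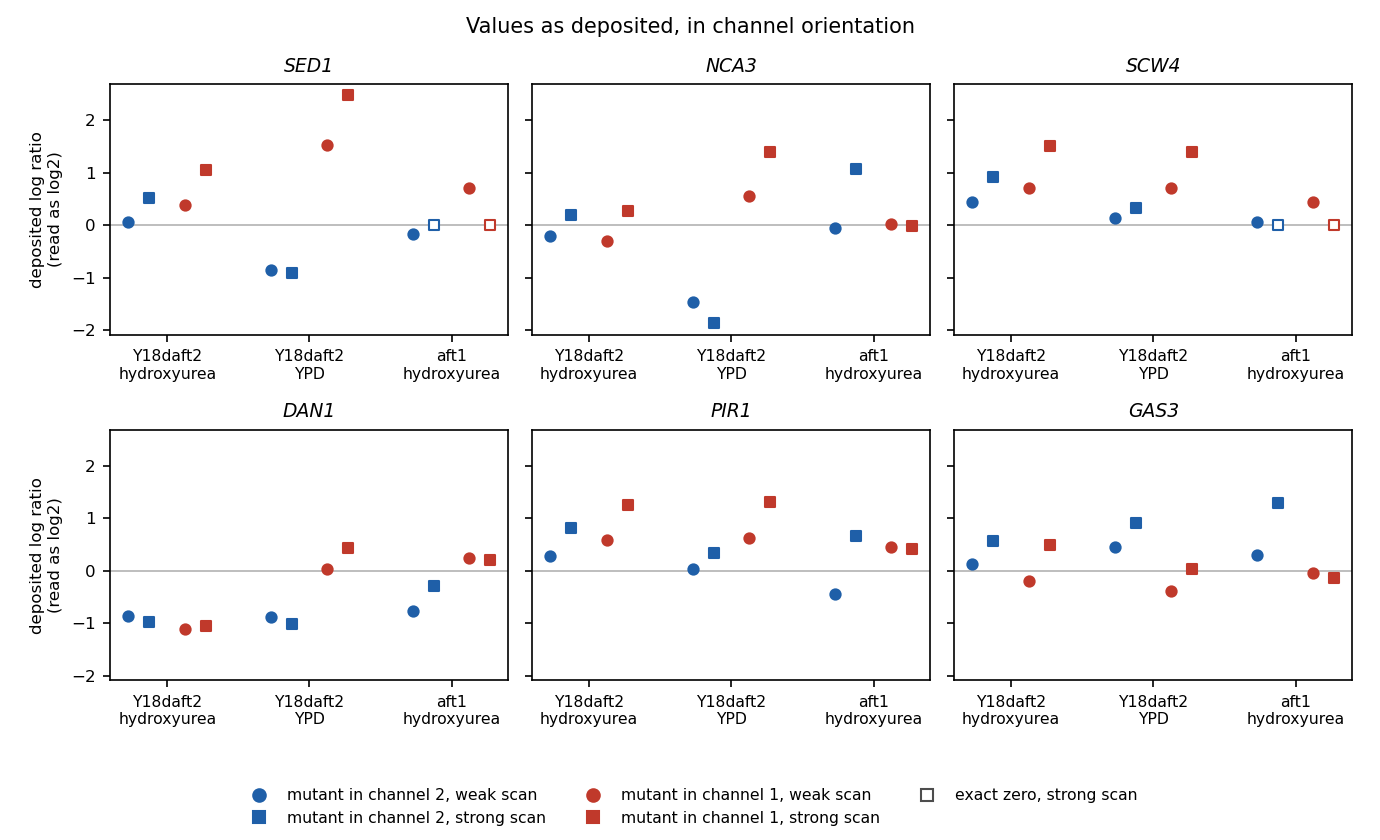
Deposited log ratios (vertical axis, read as log2, not turned) of 6 wall genes in the 12 columns, with circles for weak and squares for strong scans, blue where the mutant was in channel 2 and red where it was in channel 1. SED1 and NCA3 change sign with the channel in YPD, SCW4 and PIR1 are higher there with the mutant in channel 1 without crossing 0, and open squares mark exact zeros of strong scans.

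DAN1 and TIR2 belong to mannoproteins known to be made without oxygen or in the cold. DAN1 read 0.44 and -0.46 in Y18daft2 in hydroxyurea, 0.46 and 1.13 in YPD, and 0.47 and 0.51 in aft1. It was above 0 on both slides of the last 2 comparisons, but its mean in YPD, 0.79 (SE 0.245, n = 2 slides), had an adjusted p of 0.571 (limma). TIR2 read 0.39 and 0.28 in Y18daft2 in hydroxyurea, -0.43 and 0.10 in YPD, and 0.81 and 0.51 in aft1. It was thus above 0 on all 4 slides with hydroxyurea and split in YPD, and its aft1 mean was 0.66 (SE 0.187, n = 2 slides, adjusted p = 0.853, limma). In hydroxyurea it held the highest ratio among members in both strains, and neither passed.

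EGT2, a GPI protein needed for daughter cells to separate, read 0.31 and -0.17 in Y18daft2 in hydroxyurea, -0.64 and 0.51 in YPD, and -0.41 and -0.87 in aft1. It had the lowest aft1 ratio of the members, -0.64 (SE 0.274, n = 2 slides, adjusted p = 1.0, limma), and no common sign in either Y18daft2 comparison. The other GPI members measured, SPI1, CWP2, TIR4, CCW12, PST1 and FLO10, did not reach the naming limits. PST1, a GPI protein induced by wall damage, shows how far slides could differ: 0.78 and -0.84 in Y18daft2 in hydroxyurea, and -0.12 and 1.01 in YPD.

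Among PIR proteins 2 of 4 were measured. PIR1 read -0.15 and 0.25 in Y18daft2 in hydroxyurea, 0.40 and 0.55 in YPD, and 0.55 and 0.45 in aft1. Its means in YPD, 0.48 (SE 0.166, n = 2 slides, adjusted p = 0.696, limma), and in aft1, 0.50 (SE 0.166, n = 2 slides, adjusted p = 0.987, limma), were nearly the same size, and neither passed. CIS3 was -0.25 and 0.26 in Y18daft2 in hydroxyurea, -0.26 and 0.11 in YPD, and 0.52 and 0.02 in aft1, so the PIR members did not share a size.

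Glucan genes were the largest group, with 14 of 24 measured. Their median was -0.0045 in Y18daft2 in hydroxyurea, 0.142 in YPD and 0.048 in aft1. NCA3 belongs to the SUN family of wall proteins and SCW4 is a soluble wall protein resembling glucanases. NCA3 read -0.27 and 0.34 in Y18daft2 in hydroxyurea, 1.63 and 0.90 in YPD, and -0.07 and 0.04 in aft1. The YPD slides lay far above the other 4, and its mean there, 1.27 (SE 0.225, n = 2 slides), ranked 3 of 3127 with an adjusted p of 0.111 (limma). SCW4 read -0.07 and 0.03 in Y18daft2 in hydroxyurea, 0.96 and 0.55 in YPD, and 0.30 and 0.43 in aft1. Its YPD mean of 0.75 (SE 0.171, n = 2 slides) ranked 14, with an adjusted p of 0.292 (limma). With columns taken as already turned, the YPD means would be -0.36 for NCA3 and -0.21 for SCW4, so both ranks rest on the likely direction. The deposited NCA3 columns changed sign with the channel in YPD. They read -1.47 and -1.87 with the mutant in channel 2, and 0.55 and 1.39 with it in channel 1. Those of SCW4 read 0.13 and 0.32, then 0.70 and 1.40, without a change of sign.

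BGL2, a glucanase and glucanosyltransferase among the most abundant wall proteins, was close to SCW4 in aft1 and smaller in YPD. It read 0.04 and -0.03 in Y18daft2 in hydroxyurea, 0.37 and 0.31 in YPD, and 0.48 and 0.31 in aft1. These slides overlap in YPD and aft1 and sit above those of Y18daft2 in hydroxyurea, and the aft1 mean was 0.39 (SE 0.155, n = 2 slides, adjusted p = 1.0, limma). As for SED1 and SCW4, both aft1 strong scans of BGL2 held exact zeros, so those ratios come from weak scans alone. Exact zeros touched 8 members in all, each on aft1 slides and none on Y18daft2 slides.

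GSC2 is a stress-induced catalytic subunit of glucan synthase, and SKN1 takes part in synthesis of the branching glucan. GSC2 read -0.16 and 0.05 in Y18daft2 in hydroxyurea, 0.11 and 0.00 in YPD, and 0.38 and 0.45 in aft1. SKN1 read -0.49 and 0.17 in Y18daft2 in hydroxyurea, -0.18 and -0.31 in YPD, and 0.56 and 0.38 in aft1. For both genes the aft1 slides lay above the other 4, with means of 0.41 (SE 0.159, n = 2 slides) and 0.47 (SE 0.192, n = 2 slides) that did not pass (adjusted p = 1.0 for each, limma).

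GAS3, a member of the glucanosyltransferase family, lay below 0 on every slide. It read -0.10 and -0.25 in Y18daft2 in hydroxyurea, -0.49 and -0.47 in YPD, and -0.23 and -0.07 in aft1. The YPD mean was -0.48 (SE 0.159, n = 2 slides, adjusted p = 0.639, limma), the lowest of the members there. GAS4, known for its part in spore wall assembly, ranged from 0.05 to 0.21 over the 6 slides. GAS5 read -0.14 and -0.30 in Y18daft2 in hydroxyurea, and 0.19 and 0.26 in YPD, so the GAS genes had no common direction.

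Chitin genes showed less, with 7 of 9 measured and medians of -0.043 in Y18daft2 in hydroxyurea, -0.0034 in YPD and 0.031 in aft1. CHS1, the synthase that repairs the septum, read 0.10 and -0.15 in Y18daft2 in hydroxyurea, -0.29 and 0.16 in YPD, and 0.48 and 0.39 in aft1. CRH1, an enzyme that links chitin to glucan, read 0.05 and -0.49 in Y18daft2 in hydroxyurea, 0.38 and 0.67 in YPD, and 0.03 and 0.17 in aft1. Each was above 0 on both slides of the comparison where it was highest, with means of 0.43 (SE 0.179, n = 2 slides) for CHS1 in aft1 and 0.53 (SE 0.188, n = 2 slides) for CRH1 in YPD, and neither passed (adjusted p = 1.0 and 0.710, limma). CHS2 and CHS3, the synthases of the primary septum and of most wall chitin, lay between -0.16 and 0.08 on all 6 slides.

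Of the yapsins, proteases anchored at the cell surface, YPS1 and YPS3 were measured. YPS3 read 0.32 and -0.19 in Y18daft2 in hydroxyurea, 0.23 and 0.68 in YPD, and 0.32 and 0.37 in aft1, above 0 on 5 of 6 slides. Its YPD mean was 0.46 (SE 0.194, n = 2 slides, adjusted p = 0.946, limma). Of the wall integrity genes, the stress sensors WSC2 and WSC3 were measured. WSC3 averaged 0.48 in aft1 (SE 0.162, n = 2 slides, adjusted p = 0.987, limma), but its spots disagreed there, with 0.88 and 0.58 at 1 spot and -0.10 and 0.55 at the other.

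The 22 members that met none of the limits for being named spanned -0.30 (KRE1, a protein of glucan assembly) to 0.17 (KRE5) in Y18daft2 in hydroxyurea, -0.14 (SCW11) to 0.45 (PST1) in YPD, and -0.40 (SPI1) to 0.39 (YPS1) in aft1. KRE1 in Y18daft2 in hydroxyurea, at -0.33 and -0.27, is the member with the lowest ratio there and had the same sign on both slides.

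**Figure D3:**
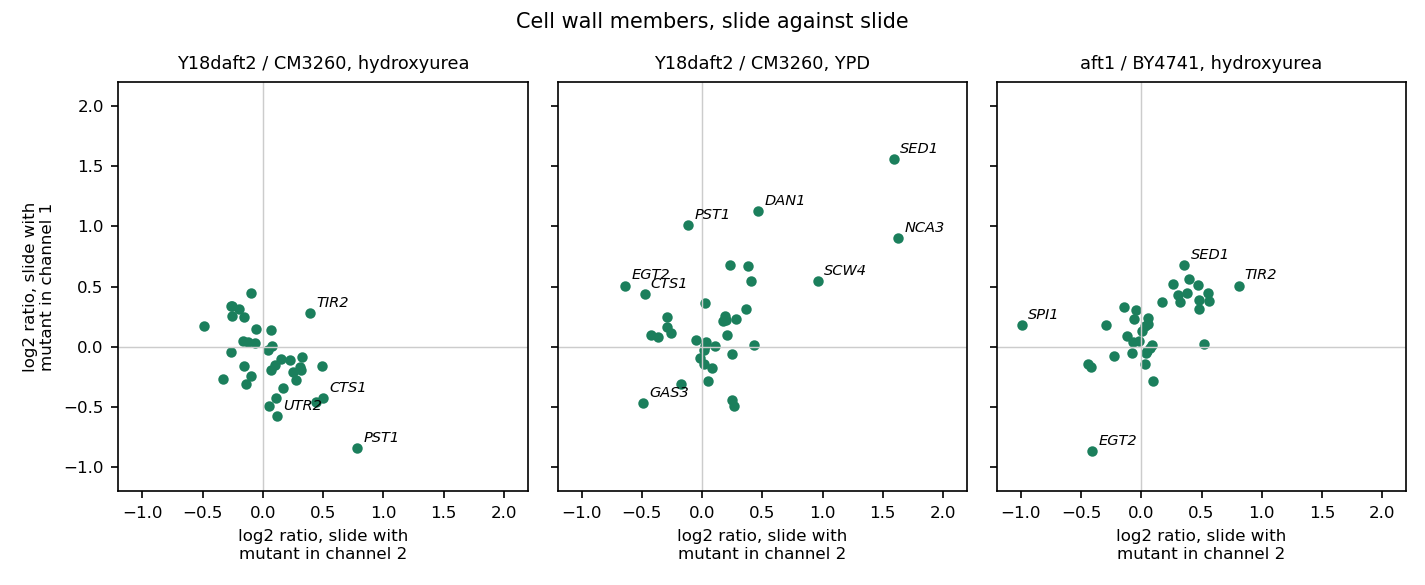
Log2 ratio of each of the 37 wall genes on the slide with the mutant in channel 2 (horizontal) and on the slide with it in channel 1 (vertical), for Y18daft2 in hydroxyurea, Y18daft2 in YPD and aft1 in hydroxyurea. In the first panel the points run from upper left to lower right, with PST1 at 0.78 and -0.84, whereas SED1, NCA3 and SCW4 are high on both slides in YPD.

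Spread among the member means was widest in YPD. The SD of their ratios was 0.129 in Y18daft2 in hydroxyurea, 0.404 in YPD and 0.287 in aft1, against 0.157, 0.216 and 0.207 over all genes. In YPD the means of the wall genes were thus spread more widely than those of genes at large, with SED1 and NCA3 at the far end. In hydroxyurea in the same strain they were not. There the slides had opposite signs for 78.4% of members, against 65.4% of all genes. Whether this bears on the narrower spread of the means was not tested, so no difference between the media is read from these SDs.

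Whether the Y18daft2 ratio differs between hydroxyurea and YPD was tested in the same fit. For 0 of 37 members did the difference pass, and for 0% of all genes. At an unadjusted limma p under 0.05 there were 5 members with a lower ratio in hydroxyurea, SED1, NCA3, DAN1, SCW4 and CRH1 (13.5% of members, against 1.6% of all genes), and 0 with a higher one (against 1.89%), where 3.49% of all genes passed in either direction. SED1 averaged 0.00 in hydroxyurea and 1.58 in YPD, a difference of -1.58 (SE 0.265, n = 2 slides each, adjusted p = 0.422, limma), the rank 2 lowest of all genes. NCA3 averaged 0.04 in hydroxyurea and 1.27 in YPD, a difference of -1.23 (SE 0.318, n = 2 slides each, adjusted p = 0.869, limma). The differences of DAN1, SCW4 and CRH1 were -0.80, -0.77 and -0.75. The hydroxyurea means of SED1, NCA3, DAN1 and SCW4 lay near 0 with slides on opposite sides of it, and none of their differences from YPD passed the test over all genes.

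**Figure D4:**
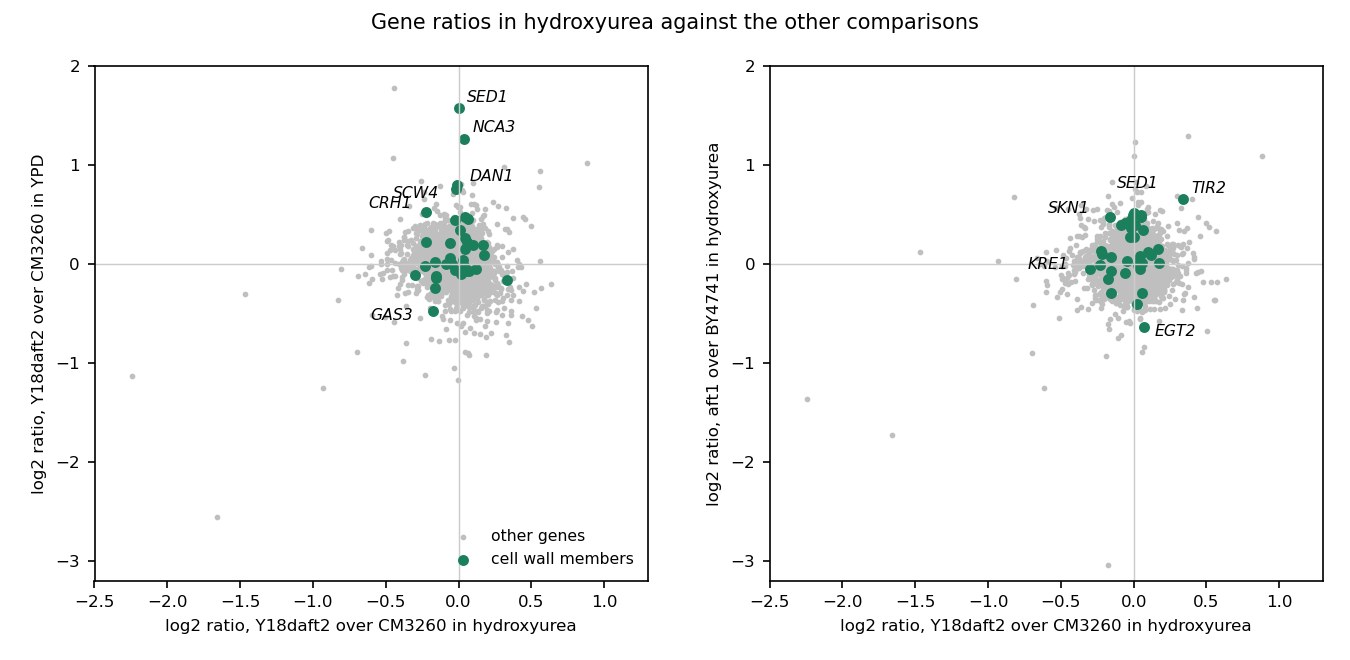
Log2 ratio of Y18daft2 over CM3260 in hydroxyurea (horizontal) against that of Y18daft2 in YPD (left, vertical) and of aft1 over BY4741 in hydroxyurea (right, vertical), for the 37 wall genes (green) and all other genes (grey). SED1 and NCA3 lie near 0 on the horizontal axis, at 0.00 and 0.04, and at 1.58 and 1.27 on the left vertical axis.

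In hydroxyurea, the ratio of Y18daft2 was also set against that of aft1. For 0 of 37 members did the difference pass, where 0.032% of all genes did. SKN1 alone among members had an unadjusted limma p under 0.05 (2.70% of members on the lower side, against 1.54% of all genes, with 2.43% in either direction), with means of -0.16 in Y18daft2 and 0.47 in aft1 and a difference of -0.63 (SE 0.272, n = 2 slides each, adjusted p = 1.0, limma). SED1 averaged 0.00 in Y18daft2 and 0.52 in aft1, a difference of -0.52 (SE 0.265, n = 2 slides each, adjusted p = 1.0, limma). The strains also differ in parent, CM3260 and BY4741, so mutation and strain background cannot be told apart here.

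Averaged over the 3 comparisons, 0 members passed, where 0.224% of all genes did. SED1 came nearest, at 0.70 (SE 0.108, n = 6 slides, adjusted p = 0.0587, limma), above 0 on 5 of 6 slides. There were 8 members on the higher side with an unadjusted limma p under 0.05 (21.6%, against 1.95% of all genes) and 1, GAS3, on the lower side (2.70%, against 1.98%), where 3.93% of all genes passed in either direction. The mean ratios of the other 7 were 0.43 for NCA3 and DAN1, 0.37 for SCW4, 0.34 for PIR1, 0.29 for YPS3, 0.28 for TIR2 and 0.25 for BGL2. GAS3 averaged -0.27.

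Other wall genes were taken from lists outside the 60 names, with 59 of 110 measured. FIT3, a mannoprotein that holds siderophore iron in the wall and a known Aft1 target, was the 1 gene of these called in any comparison. It fell in all 3, to -1.66 in Y18daft2 in hydroxyurea, -2.56 in YPD and -1.73 in aft1 (adjusted p = 0.0303, 0.00296 and 0.0221, limma). FIT2, from the same list of other wall proteins, did not fall and averaged 0.21 in Y18daft2 in hydroxyurea, 0.016 in YPD and 0.041 in aft1. The fall of FIT3 stands beside the rise of SED1 in YPD, so FIT3 and SED1 moved in opposite directions there. TIP1, a relative of TIR2, was above 0 on all 6 slides, from 0.17 to 0.54, with a mean of 0.40 (SE 0.0903, n = 6 slides, adjusted p = 0.30, limma). SAG1, the alpha-agglutinin of mating, read -0.77 and 0.04 in Y18daft2 in hydroxyurea, -0.997 and -0.593 in YPD, and 0.88 and 0.31 in aft1, and did not pass (adjusted p = 0.493 in YPD, limma).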

How the data were processed

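The authors deposited 1 table of log ratios, read here as log2, of the channels (taken here as channel 1 over channel 2) for 6912 spots in 12 columns, a weak and a strong scan of each of 6 slides. Background correction, spot filters and normalisation are not given in the sources used here, and spot intensities were not used, so the number of slides limits the precision. Symbols came from the platform annotation. It gives 3344 probes 1 gene, 387 several and 3181 spots none, and only the first were used.

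Exact zeros of strong scans (623 of 41472 values) were set to missing. Columns were median-centred, a loess trend (span 0.3, 4 iterations) on the mean of the columns of the other comparisons was removed, signs were turned to mutant over wild type, and scans, then spots of a gene, were averaged. limma 3.58.1 (R 4.3.3) fitted 3 comparisons and 1 channel coefficient over 6 slides, and p-values were adjusted by Benjamini-Hochberg over 3127 genes at 0.05. Members, lists and this treatment were chosen with earlier results of these data known. Members are named with slide values where an unadjusted p was under 0.05 or a ratio passed 0.5 in size on both slides, and other wall genes at p under 0.01. FIT2 is given beside FIT3 whatever its p. The slide numbers follow the channel of the mutant, so the channel coefficient is also the replicate block.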

Additional observations from a re-analysis of the deposited data

How the results depend on the processing

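SED1 in Y18daft2 in YPD stayed between 1.39 and 1.62, and called, under every alternative run except 3. As deposited and only turned it was 1.44 and not called. With strong scans only it had no value, since its aft1 strong scans were missing. With columns taken as already turned to mutant over wild type it was -0.015. The number of members called in Y18daft2 in YPD, 1 as reported, was 0 with values as deposited, with strong scans only and with columns taken as already turned, 2 with the trend left in or with print blocks also centred (NCA3 joining SED1), and 7 with a trend axis from all 12 columns, an alternative chosen after seeing the data (NCA3, SCW4, DAN1, PIR1, CRH1 and GAS3 joining). Leaving out 1 slide gave 2 to 3: besides SED1, DAN1 and PST1 were called without replicate 1 of Y18daft2 in YPD, and NCA3 without each other slide in turn (YPD replicate 2, and both replicates of Y18daft2 in hydroxyurea and of aft1). With the all-column axis 1 member (TIR2) was called in aft1, 2 (SED1 and NCA3) for the hydroxyurea minus YPD difference of Y18daft2, and 4 (SED1, NCA3, SCW4 and PIR1) for the mean of the 3 comparisons. Calls over all 3127 genes rose with that axis too, to 84 in YPD (8 as reported), 44 in aft1 (6), 28 for the difference (0) and 49 for the mean (7). The hydroxyurea minus YPD count, 0 as reported, ran from 0 to 2 without 1 slide: it was 2 (SED1 and PST1) without YPD replicate 1 and 1 (NCA3) without YPD replicate 2. The count for the mean, 0 as reported, was 1 (SED1) with print blocks centred, weak scans only, a trend axis from weak scans, or no channel coefficient (no replicate block), and 0 to 2 without 1 slide: 2 without either YPD slide and 1 without Y18daft2 hydroxyurea replicate 2 or aft1 replicate 1. The block changed no other count of members called. The cause of these changes was not tested.

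Directions turned where columns were taken as already turned. AFT1 would there be above wild type on 1 aft1 slide (2.41 and 4.05 as deposited) and below it on the other (-2.43 and -4.23). In hydroxyurea minus YPD, SCW4 became 0.26 and NCA3 0.67, and in Y18daft2 minus aft1 SKN1 became 0.42. In Y18daft2 in YPD, NCA3 became -0.36, SCW4 -0.21 and GAS3 0.011. In aft1, TIR2 became -0.15, PIR1 -0.052, SKN1 -0.090, BGL2 -0.081 and CHS1 -0.045. The means became -0.043 for SED1, -0.032 for DAN1, 0.0056 for GAS3, -0.048 for BGL2, -0.030 for SCW4, -0.00059 for NCA3 and -0.0033 for YPS3. SED1 in Y18daft2 in hydroxyurea, near 0 as reported, became -0.27 there, -0.014 with print blocks centred, and -0.35 to 0.35 without 1 slide. Over the named genes, 545 alternative values kept direction and side of the threshold, 33 passed it newly, 1 lost it and 22 changed sign.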

Other observations

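Enzymes of mannosylation, which add the sugar chains of mannoproteins, leaned below 0 in YPD. Of 28 listed, 19 were measured, and their median was -0.055 in Y18daft2 in hydroxyurea, -0.16 in YPD and -0.040 in aft1. None was called in these comparisons (limma with Benjamini-Hochberg), where 0.0959%, 0.256% and 0.192% of all genes were. At an unadjusted limma p under 0.05 there were 0 in Y18daft2 in hydroxyurea (against 1.57% of all genes), 3 on the lower side in YPD (15.8%, against 2.65%) and 1 on the lower side in aft1 (5.26%, against 1.76%). PMT4, a mannosyltransferase of the endoplasmic reticulum, read 0.03 and 0.34 in Y18daft2 in hydroxyurea and -0.51 and -0.96 in YPD. Its difference between these was 0.92 (SE 0.257, n = 2 slides each, adjusted p = 0.869, limma). SEC53, the phosphomannomutase that supplies activated mannose, was below 0 on all 6 slides, from -0.64 to -0.06, with a mean of -0.40 (SE 0.0913, n = 6 slides, adjusted p = 0.30, limma).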
